A study of Mus musculus with 106 samples.

Results

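The genes described are the 6 that control the sterol and glucose sensing arm of lipid synthesis: Srebf1 and Srebf2, which encode the sterol regulatory element binding proteins (SREBPs), Scap, Insig1, Insig2, and Mlxipl, which encodes the carbohydrate response element binding protein (ChREBP). They were picked by gene symbol and not by a rule on measured values, though earlier results of these data were known. All 6 were found once in each of the 4 deposited count tables, which hold between 21647 and 23420 gene rows. RNA was sequenced from tissues of male wild type C57BL/6J mice (C57BL/6 in the labels), 8 weeks old at the start, that were kept at 10 °C, at 34 °C or at a room temperature of 22 °C. The mice at 10 °C were first stepped down through 18 °C and then 14 °C, for 5 days each, stayed at 10 °C for 2 weeks and were labelled as 11 weeks old (12 weeks for quadriceps), as were their controls, which stayed at 22 °C. The mice at 34 °C stayed there for 4 weeks and were labelled as 12 weeks old, and they too had their own 22 °C controls. No gene was altered and no agent was given in any group. Cold exposure was measured in 11 tissues: interscapular brown adipose tissue (iBAT), inguinal subcutaneous adipose tissue (ingSAT), perigonadal visceral adipose tissue (pgVAT), liver, ileum, quadriceps, brain, hypothalamus, spinal cord, spleen and bone marrow. Warm exposure was measured in 5 tissues: iBAT, liver, ileum, quadriceps and brain.

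Each group had 3 libraries, except bone marrow with 6 and spinal cord with 5. Libraries pooled 2 mice, but those of bone marrow and spinal cord came from single mice, and in the iBAT of the 34 °C experiment the 3 control libraries and 2 of the warm ones were single mice. In all, 106 libraries in 32 groups gave 16 comparisons, with 4262403 to 58290770 counted reads per library in the 76 libraries of the 10 °C experiment and 29545458 to 62880248 in the 30 of the 34 °C experiment. Levels are given as CPM, read counts relative to the total of the library, after scaling by the trimmed mean of M values (TMM) within a table, and each table was scaled on its own. A change was called where the adjusted p of edgeR's quasi-likelihood F test, corrected by Benjamini-Hochberg over all genes tested in that comparison, was under 0.05. Genes past the looser limits used by the study, an unadjusted p of at most 0.05 with a change of over 1.5 times, are counted separately and named as such. Errors after ± are SD between libraries, and SE is the standard error of a log2 fold change (exposed over 22 °C).

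SREBPs are made as membrane proteins of the endoplasmic reticulum. Scap is the sterol sensing escort that carries them to the Golgi, where proteases release the active factor, and Insig1 and Insig2 are the anchors that hold Scap back when sterols are plentiful. Insig1 is itself a well known target of SREBPs, which makes it part of a feedback loop. Srebf2 mainly drives cholesterol synthesis and uptake, the liver form of Srebf1 mainly drives fatty acid synthesis, and Mlxipl responds to glucose metabolites together with its partner Mlx to drive glycolytic and lipogenic genes in liver and fat. In brown fat, lipid synthesis in the cold is known to run alongside lipid burning.

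The gene positions below are those of mouse build GRCm38. Srebf1 lies on the minus strand at chr11:60199089-60222581, Srebf2 on the plus strand at chr15:82147181-82205379, Scap on the plus strand at chr9:110333288-110384950, Insig1 on the plus strand at chr5:28071363-28078662, Insig2 on the minus strand at chr1:121304353-121332589, and Mlxipl on the plus strand at chr5:135089890-135138382. RefSeq lists 12 start sites for the 6 genes: 3 for Srebf1, 1 for Srebf2, 2 for Scap, 1 for Insig1, 3 for Insig2 and 2 for Mlxipl. Counts per gene add up all transcripts, so the SREBP-1a and SREBP-1c forms, and the ChREBP forms from the 2 starts of Mlxipl, were not separated. The end of Srebf1 overlaps the end of Rai1 on the other strand and the Mir33 gene lies within Srebf2; whether counting used the strand is not given in the sources used here.

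The promoters of Insig1 and Mlxipl are shown because these genes gave 4 of the 5 calls at 10 °C described below. The 250 bases before each start in RefSeq (GRCm38.p6) were searched on both strands for the letters TCACNCCAC (a core of the sterol regulatory element), CACGTG (an E-box) and CCAAT (the box of the SREBP partner NF-Y, ATTGG on the other strand). The capitals in the sequences below mark these matches. The Insig1 window is cut at the first annotated base of the gene, which leaves 201 bases at chr5:28071162-28071362. The first and second start of Mlxipl lie 17001 bases apart, and their windows are chr5:135089640-135089889 and chr5:135106641-135106890. All 3 are read on the plus strand, 5′ to 3′.
Insig1: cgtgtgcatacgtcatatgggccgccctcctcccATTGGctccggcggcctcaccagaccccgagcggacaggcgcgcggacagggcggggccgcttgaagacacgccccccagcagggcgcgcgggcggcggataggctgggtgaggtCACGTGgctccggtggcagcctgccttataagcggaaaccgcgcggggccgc
Mlxipl start 1: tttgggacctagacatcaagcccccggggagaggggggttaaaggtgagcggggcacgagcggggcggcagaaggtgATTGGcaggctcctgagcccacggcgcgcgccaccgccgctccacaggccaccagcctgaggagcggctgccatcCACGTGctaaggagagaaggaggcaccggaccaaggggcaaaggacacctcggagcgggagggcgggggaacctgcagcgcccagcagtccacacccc
Mlxipl start 2: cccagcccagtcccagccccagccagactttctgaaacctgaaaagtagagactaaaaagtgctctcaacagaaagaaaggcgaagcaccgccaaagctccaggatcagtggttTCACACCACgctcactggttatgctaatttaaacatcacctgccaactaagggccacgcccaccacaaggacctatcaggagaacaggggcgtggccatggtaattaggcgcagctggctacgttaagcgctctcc

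In the Insig1 window the E-box sat at bases 101 to 96 before the RefSeq start and the NF-Y box, in reverse, at bases 216 to 212. The first Mlxipl start had an E-box at bases 98 to 93 and a reverse NF-Y box at bases 173 to 169. The second Mlxipl start held the only match among the 12 starts to the sterol regulatory element core, at bases 136 to 128, with A at the free letter. Of 32851 mouse promoter windows of this length, 1.05% held the sterol regulatory element core, 6.02% the E-box and 33.8% the NF-Y box, so the last is common. Among the other starts, the NF-Y box was matched at the first and the third start of Srebf1, at that of Srebf2 and at the first of Insig2, and the E-box at the second of Scap. These are matches of letters in a short window and not measured binding sites.

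Several libraries stood apart before any temperature was compared. Brain 22 °C replicate 2 stood out by liver transcripts. Its summed level of hepatocyte markers was 47396 CPM, against 2.52 to 9.95 in the other 5 brain libraries of the 10 °C experiment, and its neuron markers summed to 1614 CPM against 2883 to 3386. The group means that the study tabulated for brain leave that library out, and brain values are therefore given with and without it. In pgVAT, 10 °C replicates 1 and 3 had summed epididymis markers of 15521 and 16695 CPM, against 2.25 in replicate 2 and 491 to 2401 in the controls, and their adipocyte markers summed to 4031 to 4858 CPM against 12999 in replicate 2 and 8429 to 12207 in the controls. Liver 22 °C replicate 3 had 235 CPM of brown adipocyte markers, against 4.6 to 43.8 in the other liver libraries of the 10 °C experiment. In pgVAT 22 °C replicate 3 these markers summed to 382 CPM, against 8.44 and 19.4 in the other controls, and quadriceps 10 °C replicate 1 had 204 CPM of epididymis markers, against 0 in the other quadriceps libraries of that comparison. The labelled tissues held their own markers, with skeletal muscle markers at 142329 CPM or more in every quadriceps library, hepatocyte markers at 105479 or more in every liver library and enterocyte markers at 8190 or more in every ileum library. The enterocyte sum does not set ileum apart from liver, since it was 41294 to 45685 CPM in the liver libraries of the 10 °C experiment. These are bulk samples, in which fewer cells of a type and less RNA per cell cannot be told apart.

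At 22 °C the control genes differed widely between tissues. Mlxipl was highest in liver with 471 CPM, followed by iBAT with 282, ingSAT with 101, pgVAT with 89.6 and ileum with 75.3, and the adjacent ranges of ingSAT and pgVAT overlapped. In brain, hypothalamus and spleen this ChREBP gene was close to absent: the spleen libraries averaged 0.375 CPM, hypothalamus averaged 2.04, and brain averaged 38.4 CPM with replicate 2 and 0.978 without it. Bone marrow had 0.282 CPM of Mlxipl and spinal cord 4.91 in their own tables. Srebf1 was high in the 3 adipose tissues and liver, with 569 CPM in ingSAT, 446 in iBAT, 421 in liver and 329 in pgVAT; the ranges of ingSAT, iBAT and liver overlapped in turn, and pgVAT lay below liver without overlap. This last order depended on the scaling, since with library size scaling only pgVAT (380 CPM) lay above liver (235) without overlap. Brain (117 CPM with replicate 2 and 90.3 without it), hypothalamus (114), spleen (78.5) and ileum (74.0) followed. Without that library brain lay below hypothalamus without overlap. Srebf2, the cholesterol factor, had a different order, with ileum highest at 173 CPM and the adipose tissues lowest: ingSAT had 47.8 CPM, pgVAT 38.6 and iBAT 37.6, and these neighbours overlapped.

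Of the anchors, Insig2 was a liver gene in these libraries, with 712 CPM in liver against 124 in brain (50.1 without replicate 2), 85.1 in ileum, 56.5 in pgVAT, 44.0 in ingSAT and 36.6 in iBAT. Insig1 was as high in iBAT, with 517 CPM, as in liver, with 496, where the ranges overlapped; ingSAT had 248 CPM, brain 145 (79.3 without replicate 2), ileum 104, pgVAT 93.3, hypothalamus 79.6 and spleen 26.9. Scap, the escort, was high in liver alone, with 348 CPM, and lay between 59.2 and 111 CPM in the other 7 tissues of that table, most of whose neighbours overlapped. In the 2 tables with more than 1 tissue, 36 of 66 pairs of tissues next to each other in a gene's order did not overlap, and 40 of 66 without the brain library.

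In the separately scaled table of the 34 °C experiment the 22 °C libraries gave Mlxipl 664 CPM in liver, 298 in iBAT, 125 in quadriceps, 81.6 in ileum and 1.81 in brain. Insig1 had 294 CPM in liver and 240 in iBAT, with overlap, and 19.4 in quadriceps, whereas with library size scaling only iBAT (278) lay above liver (205) without overlap. Insig2 had 174 CPM in liver, 98.0 in ileum and 74.0 in quadriceps, but liver (122) and ileum (120.4) overlapped with library size scaling only. Srebf2 had 284 CPM in ileum, 164 in brain, 65.9 in liver, 34.8 in iBAT and 23.1 in quadriceps. Bone marrow had 173 ± 5.68 CPM of Srebf2 (n = 6) but 15.2 ± 1.52 of Insig1 (n = 6), and spinal cord averaged 237 CPM of Srebf2 and 112 of Insig1.

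Between genes, levels were compared per kilobase of exon. In the 22 °C liver of the 10 °C experiment Insig2 had 205 CPM per kilobase, Insig1 160, Mlxipl 85.1, Srebf1 74.7, Scap 46.7 and Srebf2 15.6. The iBAT of the same experiment had Insig1 at 167 CPM per kilobase, Srebf1 at 79.2, Mlxipl at 50.9, Scap at 12.2, Insig2 at 10.5 and Srebf2 at 5.23. Insig1 therefore stood far above Insig2 in brown fat, while liver carried both anchors at similar levels per length. In ileum Srebf2, at 24.1 CPM per kilobase, exceeded Srebf1, at 13.1.

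**Figure D1:**
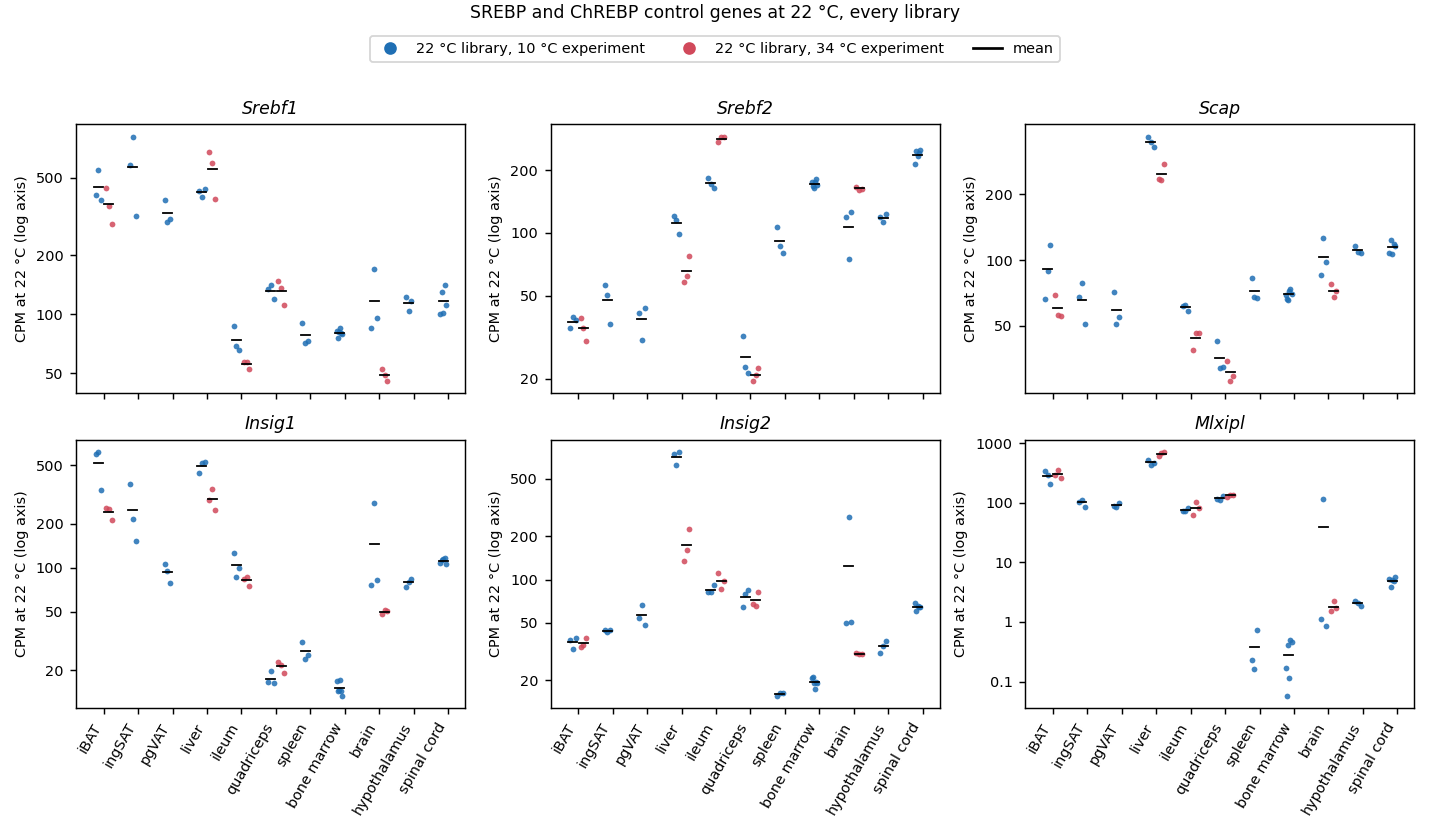
Level of each of the 6 genes at 22 °C in 11 tissues, in TMM-scaled CPM on a log axis. Each point is a library (blue, controls of the 10 °C experiment; red, controls of the 34 °C experiment; tables were scaled separately) and each black bar a mean. The mean of Mlxipl spans from 0.282 CPM in bone marrow to 664 CPM in the liver of the 34 °C experiment, and 1 brain point, the library with hepatocyte markers, lies far above its group for Mlxipl and Insig2.

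At 10 °C, the members were tested 64 times over 11 tissues (Mlxipl was too low to test in bone marrow and spleen), and 5 changes passed the adjusted threshold, all of them rises: Srebf1 and Mlxipl in iBAT, Insig1 and Mlxipl in ingSAT, and Insig1 in bone marrow. Among all genes, 11.3% were called in iBAT, 7.51% in ingSAT and 19% in bone marrow. Of the 64 tests, 17 had an unadjusted p under 0.05, and 9 passed the study's limits, 5 of them for Insig1. The shares of all genes past those limits were 13.2% in iBAT, 16.3% in ingSAT and 1.29% in bone marrow. The other tissues had few or no calls among all genes by the adjusted test, with 0.0639% in ileum, 0.0253% in quadriceps, 0.00695% in spinal cord, 0.0779% in spleen, and 0% in liver, pgVAT, brain and hypothalamus.

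In the 4 tissues with 0 calls by edgeR's quasi-likelihood test, other counts were larger. At an unadjusted p of at most 0.05 there were 2233 genes in liver, 1207 in pgVAT, 560 in brain and 897 in hypothalamus. The edgeR exact test called 469 genes in liver, 40 in pgVAT, 0 in brain and 24 in hypothalamus, and DESeq2 called 518, 157, 5 and 22. By the study's limits the shares were 3.28% in liver, 7.94% in pgVAT, 2.72% in brain, 0.578% in hypothalamus, 2.71% in ileum, 3.83% in quadriceps, 0.271% in spinal cord and 2.68% in spleen.

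Insig1, the inducible anchor, changed most often at 10 °C by the study's limits, with 5 of the 9 passes. By the adjusted threshold of edgeR's quasi-likelihood test it had 2 calls, as did Mlxipl. The exact test and DESeq2 each gave 6 calls for Insig1 and 2 for Mlxipl. In ingSAT the level of Insig1 was 1156, 687 and 752 CPM at 10 °C and 375, 214 and 153 CPM at 22 °C, a log2 fold change of 1.83 (SE 0.349) with an adjusted p of 0.0286 (edgeR). Every cold library lay above every control. The call was lost without 10 °C replicate 1 (log2 1.64, adjusted p 0.0665), 10 °C replicate 2 (1.99, 0.0677), 10 °C replicate 3 (1.93, 0.118) or 22 °C replicate 2 (1.73, 0.121), while the fold change stayed large. Brown adipocyte markers moved in the same libraries: their sum was 127 to 186 CPM at 22 °C and 2078 to 2464 CPM at 10 °C, 4 of 4 markers were called higher, and their part in the result was not tested.

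In pgVAT Insig1 had 402, 686 and 368 CPM at 10 °C and 106, 94.9 and 79.1 at 22 °C. The log2 fold change of 2.35 (SE 0.336, unadjusted p 0.0002) was past the study's limits but not called by edgeR's quasi-likelihood test (adjusted p 0.436), in a tissue with no calls at all; the adjusted p was 0.00015 by the edgeR exact test and 7.68e-12 by DESeq2. The groups did not overlap. Replicate 2, the cold library nearly free of epididymis markers, had the highest level of the 3. Without replicates 1 and 3, an analysis chosen after the data were seen, in which 0.158% of all genes were called, the log2 fold change was 2.81 (SE 0.285) with an adjusted p of 0.0406 for the single cold library left, assumed to vary like the controls. Without 10 °C replicate 2, which left the 2 cold libraries rich in epididymis markers, it was 2.06 (adjusted p 0.00566 by edgeR). That refit called 1001 genes higher and 316 lower of 15007. Leaving out any other single library gave no call of Insig1.

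In liver Insig1 had 698, 780 and 894 CPM at 10 °C against 442, 522 and 525 at 22 °C, without overlap. The log2 fold change was 0.64 (SE 0.107, unadjusted p 0.0002, adjusted p 0.0941 by edgeR), which passed the study's limits. Without 22 °C replicate 3, the library with brown adipocyte markers, it was 0.67 with an adjusted p of 0.0228 (edgeR). That refit called 83 genes higher and 455 lower of 12005. Leaving out any other library gave no call of Insig1. Hepatocyte markers in these livers summed to 105479 to 116365 CPM at 22 °C and 144396 to 152606 at 10 °C (0 of 4 called), and their part in the liver results was not tested.

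In quadriceps, a tissue with little Insig1, the levels were 48.7, 48.7 and 32 CPM at 10 °C and 16.6, 19.7 and 16.4 at 22 °C. These did not overlap either, with a log2 fold change of 1.34 (SE 0.201, unadjusted p 0.0002, adjusted p 0.103), past the study's limits. Without 10 °C replicate 3 it was 1.53 with an adjusted p of 0.00566, and against all 6 quadriceps controls 1.18 with an adjusted p of 0.0211 (edgeR). The refit without 10 °C replicate 3 called 111 genes higher and 2 lower of 11880. Leaving out any other library gave no call of Insig1. Adipocyte markers in quadriceps summed to 68.7 to 127 CPM at 22 °C and 106 to 310 at 10 °C, lowest of the cold libraries in replicate 3; their part in the result was not tested.

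In iBAT Insig1 had 886, 815 and 894 CPM at 10 °C against 596, 618 and 337 at 22 °C. The groups did not overlap and the log2 fold change was 0.71 (SE 0.227, unadjusted p 0.0125, adjusted p 0.0795 by edgeR), past the study's limits. Without 22 °C replicate 3, the lowest control, it was 0.46 with an adjusted p of 0.0393 (edgeR). That refit called 983 genes higher and 778 lower of 12816. Leaving out any other library gave no call of Insig1. Bone marrow had a called rise of much smaller size: the lowest, median and highest of 6 libraries were 17, 17.6 and 18.4 CPM at 10 °C and 13.4, 14.6 and 17.3 CPM at 22 °C, with a log2 fold change of 0.22 (SE 0.0654, adjusted p 0.0310 by edgeR) and overlapping groups. The call was lost without 22 °C replicate 2 (adjusted p 0.0657), 5 (0.0639) or 6 (0.0649), and without 10 °C replicate 3 (0.0503), 4 (0.0561) or 6 (0.065). In the same marrow libraries neutrophil markers summed to 31857 to 46747 CPM at 22 °C and 29060 to 31402 at 10 °C, B cell markers to 468 to 646 and 645 to 761, and all 4 of each were called, lower and higher, respectively; their part in the result was not tested.

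In ileum Insig1 had 138, 146 and 132 CPM at 10 °C against 127, 86.4 and 99.0 at 22 °C, again without overlap (log2 0.42, SE 0.133, unadjusted p 0.0150, adjusted p 0.20 by edgeR). In the nervous system and spleen the differences were small: log2 −0.10 (SE 0.067) in hypothalamus, −0.05 (SE 0.047) in spinal cord and 0.17 (SE 0.120) in spleen. In brain the value was −1.11 (SE 0.628) with all libraries and −0.04 without 22 °C replicate 2. Insig1 thus lay higher in all cold libraries than in all controls in 6 of the 11 tissues, namely the 3 adipose tissues, liver, ileum and quadriceps. Among these edgeR's quasi-likelihood test called it in ingSAT only. The exact test and DESeq2 each called Insig1 in 6 of the 11 tissues: iBAT, ingSAT, pgVAT, liver, quadriceps and bone marrow. Groups did not overlap, in either direction, in 20 of the 64 member tests, and such separation was not counted over all genes.

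Insig2, the other anchor, was called in 0 of 11 tissues at 10 °C by edgeR's quasi-likelihood test, with 1 unadjusted p under 0.05 and 1 call each by the exact test and DESeq2. That 1 was ileum, where Insig2 had 100, 117 and 139 CPM at 10 °C against 82.1, 81.8 and 91.4 at 22 °C without overlap (log2 0.48, SE 0.123, unadjusted p 0.0051, adjusted p 0.143 by the quasi-likelihood test, 0.0304 by the exact test and 0.0115 by DESeq2). Enterocyte markers in the same libraries summed to 11822 to 13027 CPM at 22 °C and 16512 to 16859 at 10 °C, and 1 of 4 was called higher; their part was not tested. In pgVAT the level was 34.1, 56.3 and 22.6 CPM at 10 °C and 54.5, 66.9 and 48.1 at 22 °C (log2 −0.62, SE 0.330), and −0.08 without 10 °C replicates 1 and 3. The remaining tissues differed by log2 −0.18 (liver) to 0.25 (iBAT), apart from brain, where the value of −1.64 became −0.12 without 22 °C replicate 2.

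The ratio of Insig1 to Insig2, in CPM per kilobase of exon within a library, shows the contrast between the anchors. In pgVAT it was 1.59 to 2.18 at 22 °C and 13.2 to 18.3 at 10 °C, and in ingSAT 3.85 to 9.49 and 20.2 to 31.3. Liver went from 0.667 to 0.940 at 22 °C to 1.21 to 1.83 at 10 °C. Insig1 thus passed Insig2 in every cold liver library and in no liver control of the same experiment. The liver controls of the warm experiment, also at 22 °C, had 1.22 to 2.43, so Insig1 passed Insig2 there without cold. In quadriceps the ratio was 0.219 to 0.287 at 22 °C and 0.444 to 0.948 at 10 °C. The quadriceps controls of the warm experiment had 0.262 to 0.376, below the cold range. The ranges of iBAT (9.67 to 21.2 and 19.1 to 25.5) and ileum (1.19 to 1.74 and 1.06 to 1.55) overlapped. The ratio is given as a description and was not tested.

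**Figure D2:**
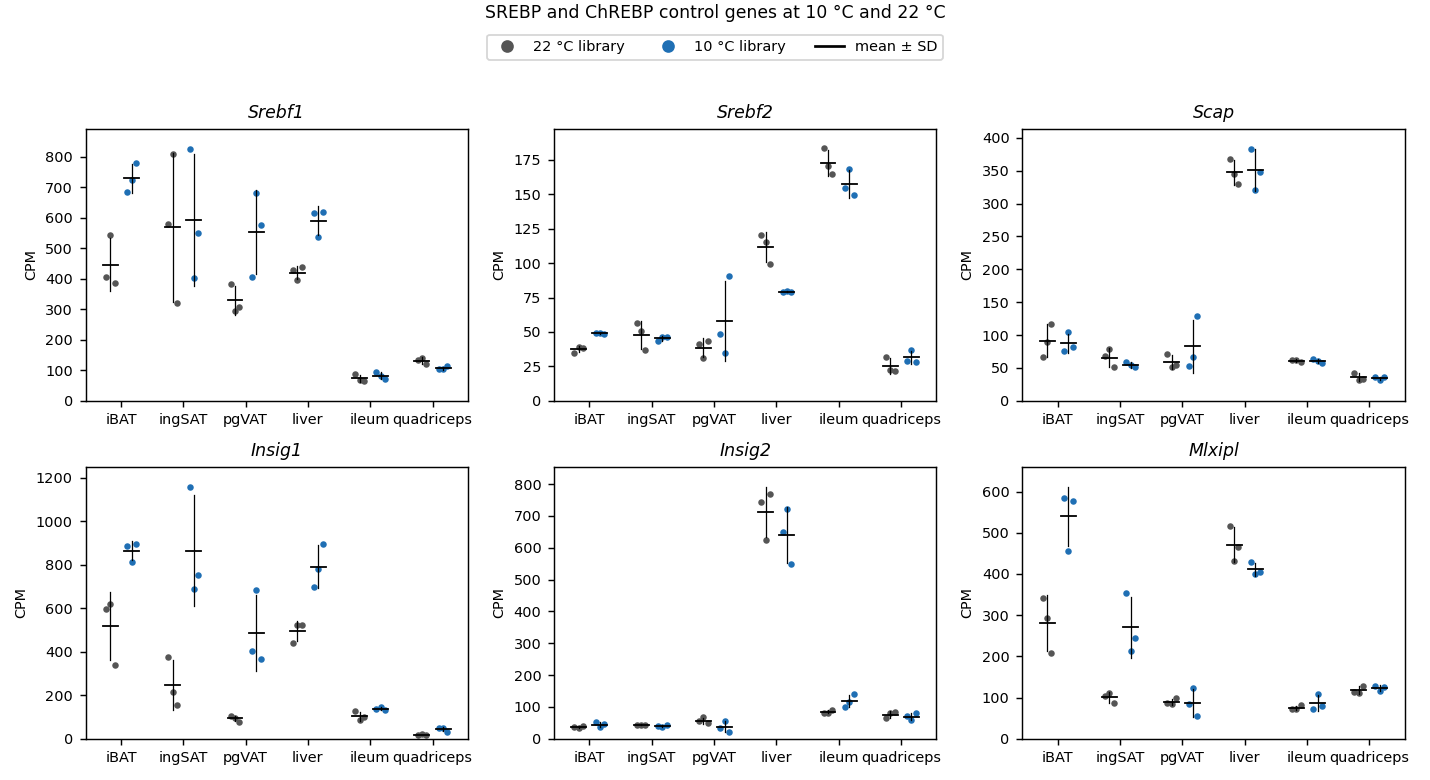
Level of the 6 genes in each library of 6 tissues of the 10 °C experiment, in TMM-scaled CPM on axes from 0; grey points are 22 °C libraries, blue points 10 °C libraries, and bars mean ± SD (n = 3). Insig1 lies higher at 10 °C than at 22 °C in all 6 tissues without overlap, while Scap overlaps in every one. Such separation was not counted over all genes.

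Srebf1 was called at 10 °C in iBAT alone by edgeR's quasi-likelihood test. The exact test and DESeq2 made 2 calls each, in iBAT and liver. The iBAT level was 686, 723 and 779 CPM at 10 °C and 407, 545 and 386 CPM at 22 °C, without overlap (log2 0.68, SE 0.159, adjusted p 0.0271 by edgeR, past the study's limits). The quasi-likelihood call in iBAT was lost without 10 °C replicate 2 (adjusted p 0.058), 10 °C replicate 3 (0.114) or 22 °C replicate 1 (0.0756). With scaling by library size only, under which the median of all genes in iBAT shifted by −0.18, the log2 fold change was 0.52 with an adjusted p of 0.0531. Brown adipocyte markers in these libraries summed to 9781 to 15954 CPM at 22 °C and 16718 to 21116 at 10 °C (1 of 4 called higher), and skeletal muscle markers to 7217 to 9135 and 2693 to 5654 (1 of 5 called lower); their part in the iBAT results was not tested.

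In liver Srebf1 had 616, 537 and 620 CPM at 10 °C against 428, 396 and 438 at 22 °C, without overlap (log2 0.46, SE 0.0846, adjusted p 0.0941 by edgeR), and 0.48 with an adjusted p of 0.0347 without 22 °C replicate 3. Leaving out any other liver library gave no call of Srebf1. In ingSAT it was 827, 402 and 550 CPM against 579, 809 and 319, a wide spread in both groups (log2 0.09, SE 0.356). In pgVAT it was 407, 681 and 576 CPM against 384, 296 and 307, without overlap (log2 0.73, SE 0.315, adjusted p 0.593 by edgeR), with 0.98 without 10 °C replicates 1 and 3. In quadriceps all cold libraries lay below the controls, with 103, 105 and 113 CPM against 134, 141 and 120 (log2 −0.27, SE 0.106, adjusted p 0.439).

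Srebf2 was called in 0 of 11 tissues by edgeR's quasi-likelihood test, with 2 unadjusted p-values under 0.05 and 2 calls each by the exact test and DESeq2, in iBAT and liver. The iBAT levels were 49.4, 49.3 and 48.7 CPM at 10 °C and 34.9, 39.4 and 38.4 CPM at 22 °C (log2 0.36, SE 0.100, adjusted p 0.0517). The liver levels were 78.9, 79.6 and 78.9 CPM at 10 °C and 121, 115 and 99.4 CPM at 22 °C (log2 −0.53, SE 0.0863, adjusted p 0.0941), and without 22 °C replicate 3 the value was −0.62 with an adjusted p of 0.00931. Leaving out any other liver library gave no call of Srebf2. In both tissues the groups did not overlap, with the cold libraries above the controls in iBAT and below them in liver. The ratio of Srebf1 to Srebf2, in CPM per kilobase of exon, in liver was 4.39 to 5.61 at 22 °C and 8.61 to 10.0 at 10 °C. In quadriceps it was 5.33 to 7.95 and 3.63 to 5.04. The 22 °C controls of the warm experiment had 6.39 to 14.8 in liver, a range that includes the cold one. In quadriceps those controls had 6.38 to 9.59, above the cold range.

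Scap was called in no tissue at 10 °C: 0 of 11 by edgeR's quasi-likelihood test, by its exact test and by DESeq2, with 0 unadjusted p-values under 0.05, and its groups overlapped in all 11. In iBAT, for example, the escort had 76.3, 104 and 82.4 CPM at 10 °C and 66.6, 89.6 and 117 CPM at 22 °C (log2 −0.08, SE 0.193). In liver it had 384, 320 and 348 CPM against 367, 346 and 330 (log2 −0.02, SE 0.0892). The widest difference, log2 0.47 (SE 0.358) in pgVAT, came with 129 CPM in 10 °C replicate 3 and was 0.11 without 10 °C replicates 1 and 3.

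Mlxipl was called higher at 10 °C in 2 adipose tissues. In iBAT it had 585, 456 and 577 CPM at 10 °C and 343, 293 and 209 CPM at 22 °C, without overlap (log2 0.90, SE 0.203, adjusted p 0.0238 by edgeR). This call was lost without 10 °C replicate 1 (adjusted p 0.0568), 10 °C replicate 3 (0.0829) or 22 °C replicate 2 (0.0928), and with library size scaling only (log2 0.74, adjusted p 0.0575). In ingSAT Mlxipl had 353, 213 and 244 CPM at 10 °C and 104, 112 and 86.1 CPM at 22 °C, again without overlap (log2 1.45, SE 0.179, adjusted p 0.0084 by edgeR). That call was lost only without 10 °C replicate 3 (1.52, adjusted p 0.0673).

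In pgVAT, the remaining fat depot, Mlxipl had 85.4, 122 and 54.2 CPM at 10 °C against 87.1, 83.5 and 98.2 at 22 °C (log2 −0.07, SE 0.307), and 0.37 without 10 °C replicates 1 and 3, with the lone library at 122 CPM above all 3 controls. In liver the cold libraries had 428, 401 and 404 CPM and the controls 516, 433 and 466, all cold values below all controls (log2 −0.23, SE 0.0856, unadjusted p 0.0261, adjusted p 0.209). Quadriceps (log2 0.09) and ileum (0.20) overlapped. The brain value of −6.11 (SE 2.28, unadjusted p 0.0387, adjusted p 0.707) passed the study's limits, but came from 113 CPM in the library with hepatocyte markers; the other brain libraries had 0.666 to 1.10 CPM, and without it Mlxipl was too low to test.

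**Figure D3:**
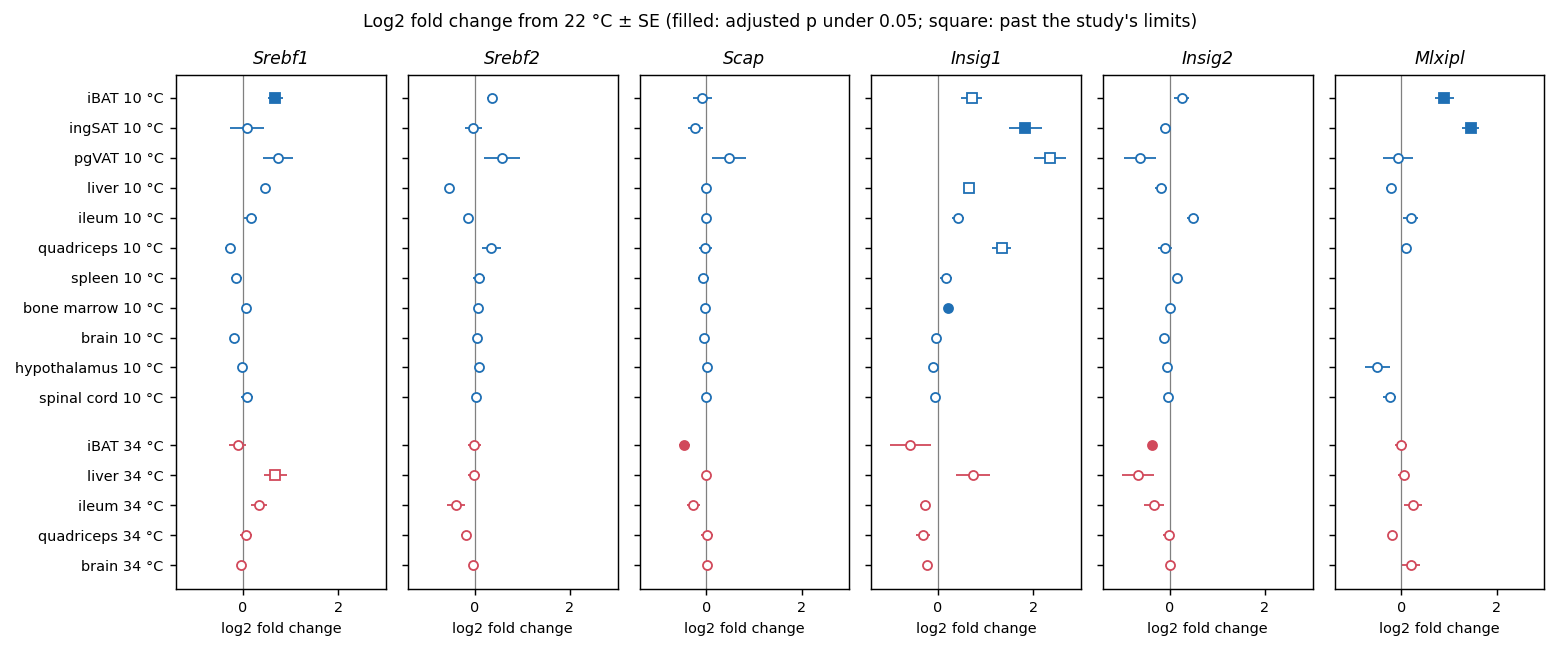
Log2 fold change (exposed over 22 °C) of the 6 genes in the 16 comparisons, with bars of 1 SE. Filled points have an adjusted p under 0.05 (edgeR quasi-likelihood), squares are past the study's limits, and brain at 10 °C is drawn without 22 °C replicate 2. The widest cold effects are those of Insig1 in pgVAT (2.35) and ingSAT (1.83) and of Mlxipl in ingSAT (1.45).

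Whether the cold effect differed between the 3 adipose tissues and liver was tested directly in a joint fit of the 24 libraries of these 4 tissues, with 36 differences for the 6 genes. Of these 3 passed the adjusted threshold and 11 had an unadjusted p under 0.05. The effect on Mlxipl was higher in ingSAT than in liver by log2 1.69 (SE 0.326; 95% interval 1.06 to 2.33, adjusted p 0.0107 by edgeR), called in all 24 refits that left out 1 library; 1.75% of all genes were called in that contrast. It was also higher in ingSAT than in pgVAT, by 1.52 (SE 0.326; 0.89 to 2.16, adjusted p 0.0318), where 1.39% of all genes were called. The effect on Insig1 was lower in iBAT than in pgVAT by 1.66 on the log2 scale (−1.66, SE 0.409; −2.46 to −0.86, adjusted p 0.0349), where 2.96% of all genes were called. These last 2 calls each held in 17 of 24 refits. With the replicate number as a block, the adjusted p was 0.0506 for Mlxipl between ingSAT and liver, 0.0786 for Mlxipl between ingSAT and pgVAT and 0.0493 for Insig1 between iBAT and pgVAT (edgeR), so the Mlxipl calls were lost. Without pgVAT 10 °C replicates 1 and 3, an analysis added after the data were seen, 5 of the 36 were called: ingSAT against liver for Mlxipl (1.69, adjusted p 0.0012), iBAT against pgVAT for Insig1 (−2.08, adjusted p 0.0151), pgVAT against liver for Insig1 (2.15, 0.0222) iBAT against liver for Mlxipl (1.13, 0.0207), and Srebf2 between iBAT and liver (0.89, 0.0201), while ingSAT against pgVAT for Mlxipl was 1.12 with an adjusted p of 0.0718 (edgeR).

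Other differences were not called. Insig1 differed by 1.72 between pgVAT and liver (0.92 to 2.53, adjusted p 0.0972), by 1.20 between ingSAT and liver (adjusted p 0.147) and by −1.14 between iBAT and ingSAT (adjusted p 0.204), and the interval of iBAT against liver was −0.73 to 0.86 around 0.07. For Mlxipl iBAT and liver differed by 1.13 (adjusted p 0.0988). All genes were called at 0.973% between iBAT and ingSAT, 1.46% between iBAT and liver, and 0.0621% between pgVAT and liver. So the cold effect on Insig1 was not shown to differ between brown fat and liver, within that interval.

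The known targets of the 2 factors were followed through lists of 21 cholesterol genes, 17 fatty acid genes and 9 carbohydrate genes. These lists were chosen with earlier results of these data known. In iBAT at 10 °C, 15 of 20 tested cholesterol genes were called higher and 0 lower (median log2 1.23, against −0.02 over all genes), and 10 of 17 fatty acid genes (median 1.23). Over all genes 11.3% were called in iBAT. Fdps, a farnesyl diphosphate synthase of the cholesterol pathway, rose from 27 ± 8.24 to 117 ± 7.58 CPM (n = 3; log2 2.08, adjusted p 0.0010 by edgeR). Sqle, squalene epoxidase, rose by 1.68 (adjusted p 0.0034 by edgeR). Of the fatty acid genes, Me1, the malic enzyme that supplies NADPH, rose by 2.09 (0.0052), Elovl6, an elongase, by 1.56 (0.0042), Acly, which makes cytosolic acetyl-CoA, by 1.64 (0.0280) and Fasn, the fatty acid synthase, by 1.32 (0.0449). Hmgcs1 (0.36, adjusted p 0.276) and Scd1 (0.12, 0.839) did not pass.

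Of the carbohydrate genes, which ChREBP is known to bind, 2 of 6 were called higher and 1 lower in iBAT (median −0.05). Gpd1, the glycerol 3-phosphate dehydrogenase, rose by 1.20 (adjusted p 0.0094 by edgeR) from 7166 to 16715 CPM, and Txnip, a classical glucose induced gene, had −0.53 (0.177). Mlx, the partner of ChREBP, rose by 0.65 (0.0094), from 40.5 to 64.9 CPM, while Mlxip, another partner of Mlx, had −0.13.

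In ingSAT 11 of 21 cholesterol genes were called higher and 0 lower (median 1.14), 3 of 17 fatty acid genes higher (median 1.04), and 1 of 7 carbohydrate genes (median −0.04). Over all genes 7.51% were called in ingSAT, so the carbohydrate count lay near that share. Cyp51, a demethylase of the cholesterol pathway, rose by 1.64 (adjusted p 0.0380 by edgeR), Hmgcs1 by 1.16 (0.0408), and Elovl6 by 2.38 (0.0369), from 276 to 1395 CPM. Mlx rose by 0.97 (0.0154) and Gpd1 by 1.53 (0.0364), while Txnip had −0.92 (0.0554). In both fat depots where Mlxipl was called higher, its partner Mlx and Gpd1 were called higher as well. The carbohydrate list as a whole did not rise there, with medians of −0.05 in iBAT and −0.04 in ingSAT. Acly (1.54, adjusted p 0.165), Scd1 (1.04, 0.0995) and Fasn (0.52, 0.596) did not pass.

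In pgVAT and quadriceps 0 cholesterol and 0 fatty acid genes were called by edgeR's quasi-likelihood test. At an unadjusted p under 0.05 there were 13 of 21 and 10 of 17 in pgVAT and 12 of 20 and 13 of 17 in quadriceps, and DESeq2 called 7 and 5, and 4 and 9 (exact test 4 and 3, and 4 and 9). By the study's limits 13 cholesterol genes were higher in pgVAT (median 0.91) and 9 in quadriceps (median 0.48), and 10 and 12 fatty acid genes (medians 1.16 and 1.07); none was lower. Over all genes, 7.94% in pgVAT and 3.83% in quadriceps passed those limits. An unadjusted p of at most 0.05 was reached by 1207 of 14856 genes in pgVAT and 1258 of 11841 in quadriceps. Without pgVAT 10 °C replicates 1 and 3 the medians were 0.66 and 1.61. Elovl6 in quadriceps had 3.10 CPM at 22 °C and 72.1 at 10 °C (log2 4.58, adjusted p 0.0560), beside adipocyte markers that also varied.

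In liver 0 of 21 cholesterol genes were called by edgeR's quasi-likelihood test (3 at an unadjusted p under 0.05, 2 by the exact test and 2 by DESeq2), with a median of −0.15, and of 17 fatty acid genes 0 (4, 2 and 2), with a median of −0.06. Hmgcs1 had −0.39, Sqle −0.31, Fasn −0.02 and Acly −0.01, beside the higher Insig1 and Srebf1 levels and the lower Srebf2 levels given above. Pklr, the liver pyruvate kinase and a ChREBP target, had 0.34 (adjusted p 0.119). In ileum 20 of 21 cholesterol genes had a positive sign with a median of 0.23, against −0.006 over all genes, and 0 were called (8 at an unadjusted p under 0.05, 2 by the exact test, 3 by DESeq2). Over all genes 2414 of 14081 in ileum had an unadjusted p of at most 0.05. In bone marrow, where 19% of all genes were called, 3 of 20 cholesterol genes were called higher, among them Sqle (0.37, adjusted p 0.0040), and 4 of 14 fatty acid genes higher, led by Fads2 (0.42, 0.0037), with Aacs lower (−0.22, 0.0357). The brain median of the cholesterol genes was −0.65 with all libraries and −0.00 without 22 °C replicate 2.

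Of the 10 genes for SREBP processing and turnover, edgeR's quasi-likelihood test called 0 at 10 °C in each tissue except bone marrow. At an unadjusted p under 0.05 there were 2 in iBAT and 3 in ingSAT, the exact test called 1 in each, and DESeq2 called 0 and 2. In bone marrow Rnf139 rose by 0.14 (adjusted p 0.0332 by edgeR) and Erlin1 fell by 0.30 (0.0041), both genes of the degradation machinery. Of the partners and regulators, 2 of 11 rose in iBAT and 2 of 12 in ingSAT, where 11.3% and 7.51% of all genes were called. In bone marrow, where 19% of all genes were called, 3 of 11 rose and Mlx fell by 0.17 (0.0443). Nr1h3, the liver X receptor that drives Srebf1, had 0.41 (adjusted p 0.123) in iBAT, 0.04 in ingSAT and 0.08 in liver.

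**Figure D4:**
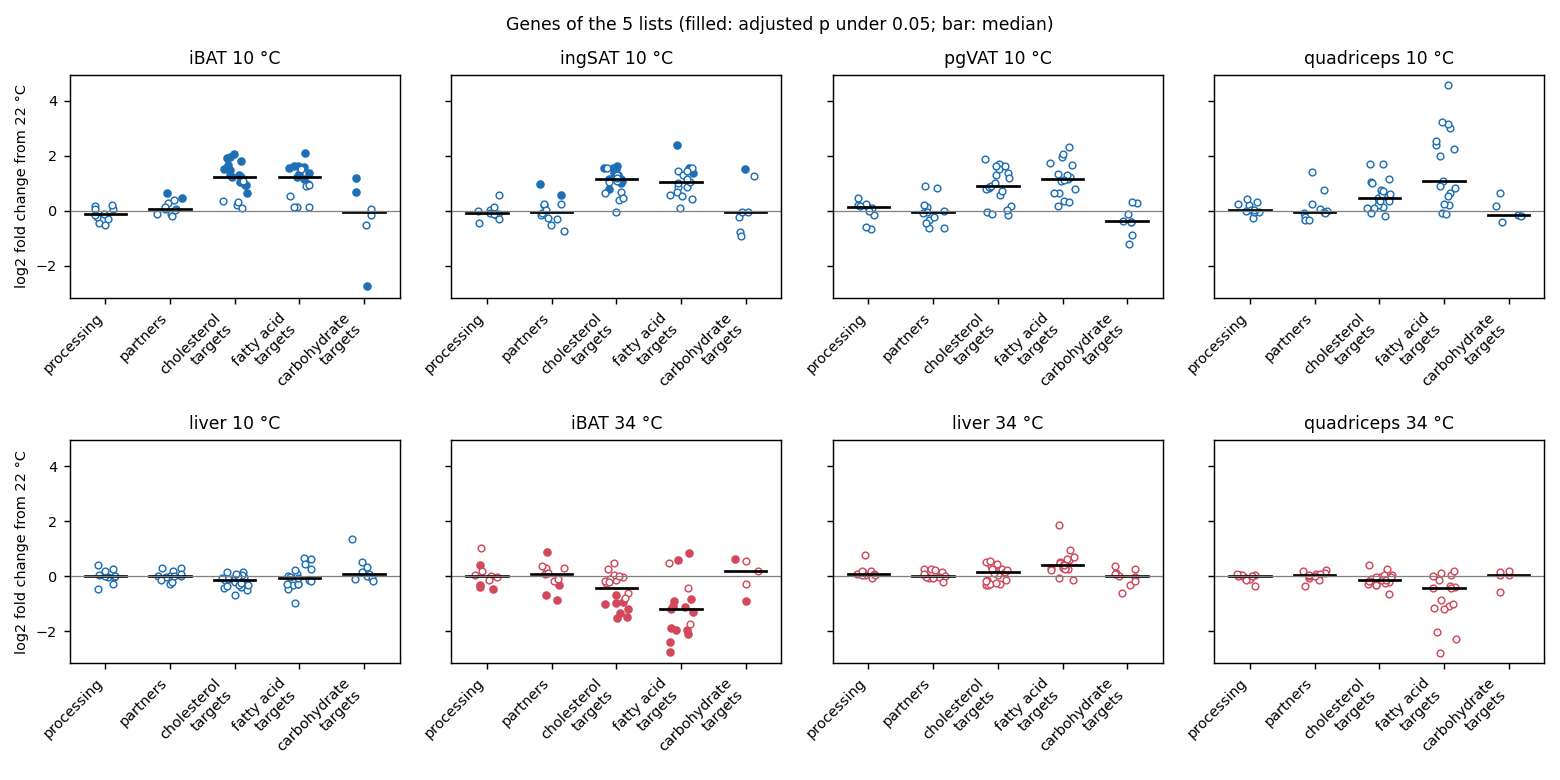
Log2 fold changes of the genes in the 5 lists (SREBP processing and turnover, partners and regulators, cholesterol, fatty acid and carbohydrate targets) in 8 comparisons. Each point is a gene, filled where its adjusted p was under 0.05 (edgeR quasi-likelihood), and bars are medians. The cholesterol and fatty acid targets lie high in iBAT (medians 1.23 and 1.23) and ingSAT (1.14 and 1.04) at 10 °C and low in iBAT at 34 °C (−0.44 and −1.18).

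At 34 °C the members were tested 30 times in 5 tissues. The adjusted threshold was passed 2 times, by Scap and Insig2 in iBAT, both lower, in a tissue where 28.9% of all genes were called (19.4% by the study's limits). Of the 30 tests 5 had an unadjusted p under 0.05, and 1 passed the study's limits. In the other tissues 0.385% of genes were called in liver and 0% in brain, ileum and quadriceps by edgeR's quasi-likelihood test, with 369, 1011 and 486 genes at an unadjusted p of at most 0.05 in the last 3, 0, 5 and 18 calls by the exact test and 4, 26 and 18 by DESeq2. The study's limits gave 3.38% in liver, 0.193% in brain, 2.83% in ileum and 1.21% in quadriceps.

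In warm iBAT Scap had 43.0, 46.2 and 43.2 CPM, against 69.6, 55.9 and 55.7 at 22 °C, without overlap (log2 −0.46, SE 0.107, adjusted p 0.0196 by edgeR). Insig2 had 26.4, 29.8 and 28.3 CPM against 34.3, 34.9 and 39.0, also without overlap (log2 −0.36, SE 0.0868, adjusted p 0.0210). Both changes were under 1.5 times. The Scap call was lost without 34 °C replicate 1 (adjusted p 0.0667) or 3 (0.054), and that of Insig2 without 22 °C replicate 3 (0.0758) or 34 °C replicate 1 (0.0667). With library size scaling only, where the median of all genes shifted by 0.30, Scap was at −0.19 (adjusted p 0.22) and Insig2 at −0.09 (0.425), and all-gene calls split into 4234 higher and 684 lower in place of 1661 and 1900. Brown adipocyte markers summed to 8362 to 11237 CPM at 22 °C and 4617 to 5726 at 34 °C (1 of 4 called lower). Skeletal muscle markers summed to 0.577, 3323 and 5.2 CPM at 22 °C and to 2645, 699.9 and 781 at 34 °C (0 of 5 called), and hepatocyte markers to 81.4 to 99.4 and 142 to 331 (1 of 2 tested called higher). The part of these markers in the result was not tested.

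Insig1 in warm iBAT had 89.4, 293 and 103 CPM against 254, 253 and 214 at 22 °C: 2 warm libraries lay below all controls and replicate 2 lay above them (log2 −0.58, SE 0.424, adjusted p 0.329). Without 34 °C replicate 2 the log2 fold change was −1.35 with an adjusted p of 0.00383 (edgeR). Leaving out any other library gave no call of Insig1. Mlxipl (322, 276 and 295 CPM against 290, 351 and 254; log2 −0.01), Srebf1 (298, 406 and 315 against 443, 360 and 290; −0.11) and Srebf2 (34.0, 40.1 and 29.9 against 39.2, 35.1 and 30.2; −0.01) overlapped. Of the targets, 8 of 20 cholesterol genes and 12 of 17 fatty acid genes were called lower, with 0 and 2 higher (medians −0.44 and −1.18), beside 28.9% of all genes called. Fasn fell by 2.75 (adjusted p 0.0114 by edgeR), from 26827 to 3993 CPM, Elovl6 by 2.40 (0.0018), Acly by 1.96 (0.0173), Nsdhl of the cholesterol pathway by 1.54 (0.0057) and Hmgcs1 by 1.02 (0.0047).

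In the same warm iBAT Mlx fell by 0.86 (adjusted p 0.0018 by edgeR), from 43.6 to 24.1 CPM, and Nr1h3 by 0.70 (0.0056). Gpd1 fell by 0.89 (0.0033), and Txnip rose by 0.62 (0.0133). Of the processing genes Rnf139 fell by 0.47 (0.0069) and Erlin1 rose by 0.40 (0.0325), and Mylip, a ubiquitin ligase under control of liver X receptors, rose by 0.86 (0.0111). Values for iBAT at 10 °C came from other mice, another supplier and another sequencing site, so the cold and warm experiments are set side by side here and their difference was not tested.

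In warm liver Srebf1 had 686, 1215 and 770 CPM against 675, 591 and 389 at 22 °C, without overlap (log2 0.68, SE 0.242, unadjusted p 0.0207, adjusted p 0.337 by edgeR), the only member past the study's limits at 34 °C. Its unadjusted p rose above 0.05 without 22 °C replicate 3 (0.49, p 0.0668 by edgeR) or 34 °C replicate 2 (0.40, p 0.0772 by edgeR). Insig1 had 269, 845 and 367 CPM against 290, 347 and 246 (log2 0.74, SE 0.360, adjusted p 0.495), again highest in replicate 2. Insig2 had 111, 162 and 56.9 CPM against 134, 161 and 226 (log2 −0.67, SE 0.337, adjusted p 0.511), and the ratio of Insig1 to Insig2 per kilobase was 2.73 to 7.25 at 34 °C and 1.22 to 2.43 at 22 °C. Mlxipl differed by 0.05 and Scap by −0.00. Hepatocyte markers summed to 121775 to 149039 CPM at 22 °C and 181920 to 192708 at 34 °C (0 of 4 called), and their part was not tested.

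In brain Insig1 had 41.6, 42.4 and 44.4 CPM at 34 °C against 48.1, 51.2 and 50.8 at 22 °C, a small difference without overlap (log2 −0.23, SE 0.0589, unadjusted p 0.0029, adjusted p 0.9997 by edgeR). The cholesterol genes of brain had a median of −0.12, against 0.0003 over all genes, and 0 of 21 had a positive sign; 5 had an unadjusted p under 0.05 and 0 were called by edgeR or DESeq2. Over all genes 369 of 13978 in brain had an unadjusted p of at most 0.05. In ileum Insig1 had 67.7, 60.6 and 78.1 CPM against 83.9, 86.8 and 75.5 (log2 −0.27, SE 0.108), and Srebf2 had 259, 159 and 238 CPM against 273, 290 and 289, all warm libraries lower (log2 −0.39, SE 0.187, adjusted p 0.594). B cell markers in ileum summed to 48.6 to 271 CPM at 22 °C and 4.23 to 118 at 34 °C. In quadriceps Insig1 had 19.99, 17.5 and 14 CPM against 22.8, 21.8 and 19.1, with overlap (log2 −0.31, SE 0.148).

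Of the 24 differences in warm effect against liver 0 passed the adjusted threshold by edgeR's quasi-likelihood test and 6 had an unadjusted p under 0.05. The closest were those of iBAT, with log2 −0.48 for Scap (adjusted p 0.0704), −1.34 for Insig1 (0.0734) and −0.82 for Srebf1 (0.083). Among all genes, 10.6% were called between iBAT and liver, 0.0266% between brain and liver, 0.18% between ileum and liver and 0.0399% between quadriceps and liver.

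**Figure D5:**
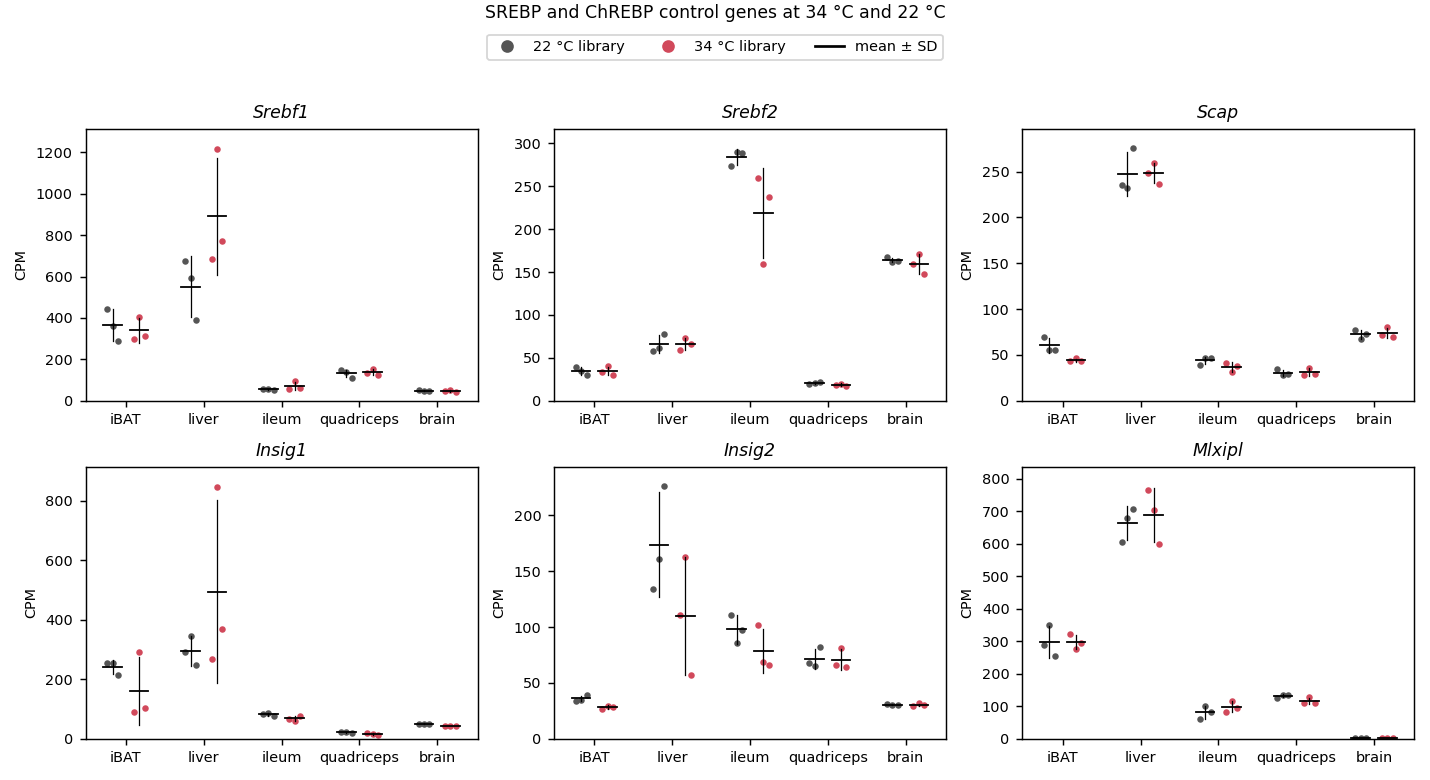
Level of the 6 genes in each library of the 5 tissues of the 34 °C experiment, in TMM-scaled CPM on axes from 0; grey points are 22 °C libraries, red points 34 °C libraries, and bars mean ± SD (n = 3). Scap and Insig2 lie lower in all warm iBAT libraries, and Insig1 of 34 °C replicate 2 stands above its group in iBAT (293 CPM) and liver (845 CPM). The labels do not say whether a replicate number stands for the same mice in different tissues.

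As a description of which genes had a like pattern, the mean log2 CPM of each member was correlated with that of 15887 genes over the 16 groups of the table of 8 tissues, groups that share mice and a scaling. Insig1 ran most closely with Acss2 (Pearson's r 0.968), the cytosolic acetyl-CoA synthetase, Pmvk (0.965), a kinase of the cholesterol pathway, and Tbca (0.960), and the values without the brain library were 0.968, 0.962 and 0.959. Srebf1 was nearest to Fmo1 (0.974), Dhdh (0.972) and L3hypdh (0.970), and Mlxipl to 4931406C07Rik (0.981) and Kif1c (0.975). Scap was nearest to Aspdh (0.968), Pzp (0.967) and Cyp2a5 (0.966), and Insig2 to Trip4 (0.971), Lhpp (0.969) and Apoc3 (0.968). Srebf2 was nearest to Rybp (0.962), Cmas (0.957) and Zfp280b (0.956). Without the brain library the nearest genes became Serpind1, Slc19a2 and Slc22a7 for Scap, Tymp replaced Apoc3 for Insig2, and B4galt5 replaced Zfp280b for Srebf2. Among the members themselves, Insig1 ran with Mlxipl (0.884) and Srebf1 (0.879), Scap with Insig2 (0.771), and Srebf1 opposite to Srebf2 (−0.791).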

How the data were processed

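RNA-seq of 106 mouse libraries was used as deposited. The authors extracted RNA with Trizol (with a column kit from bone marrow), sequenced it, aligned the reads to mm10 and deposited raw read counts per gene; the submitters' notes name STAR 2.5.3a and HTSeq 0.6p1, and the strand setting is not given in the sources used here. Bone marrow, spinal cord and the libraries of the 34 °C experiment were stranded mRNA libraries, read as single reads of 50 bases. The mice of the 10 °C and 34 °C experiments came from different suppliers. Temperature groups follow the sample titles where count columns match them. Columns of the 34 °C experiment and of quadriceps were placed by the tissue and temperature in their names. A spinal cord control column carries a number that no sample title has and was placed by its name alone. The 6 quadriceps controls were split between the experiments by column names, and the group means tabulated with the study, of which only a part was at hand, equal the means of the 3 used at 10 °C in 1999 of 1999 genes (relative tolerance 0.0001) and those of brain 22 °C replicates 1 and 3 in 1960 of 1960. No value of that table was used. Where pooled or single animals are not tied to separate cages, p-values measure only the spread between libraries.

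For every comparison a separate model was fitted to the counts of its 2 groups (edgeR 4.0.16, R 4.3.3), with TMM factors, a minimum of 0 for a gene's mean log2 CPM, the quasi-likelihood F test and Benjamini-Hochberg correction, and tissue differences were fitted jointly. Alternatives were the edgeR exact test, DESeq2 1.42.0, library size scaling, another filter, a replicate block and leaving out each library. Tested on data simulated for iBAT at 10 °C (12722 genes), 78% of 100 genes changed by a log2 fold change of 1 and 100% of 96 changed by 2 were recovered. Mlxipl in bone marrow rested on 1 to 10 counts per library and was not tested. Promoters are from RefSeq (GRCm38.p6), gene positions from GENCODE. Tables and figures were made in Python 3.11.15 (pandas 2.3.3, numpy 2.4.6, matplotlib 3.10.9). The members and lists were chosen with earlier results of these data known. Named list genes are 12 fixed genes, given beside a member, and in each comparison the called gene of a list with the largest rise and fall. Likeness names the 3 genes with the highest Pearson's r of mean log2 CPM over groups. The 95% intervals of tissue differences are normal intervals from the SE. Some genes that these rules name are not reported here.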

Additional observations from a re-analysis of the deposited data

Results flagged for a closer look

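Of 30 groups of 4 to 10 libraries, 2 had a library far from the others, and chance gives about 1 in 20. Insig2 in bone marrow at 10 °C had 17.8 CPM in replicate 2, against 19.4 to 20.4 in the other 5. Srebf2 in quadriceps at 22 °C had 32.1 CPM in replicate 1, against 19.6 to 22.6 in the other 5 controls; that library also held the highest level of pancreas acinar markers, 1310 CPM.

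The cold effect differed between tissues, by the test of the difference in edgeR, for 2 genes. Mlxipl differed by log2 1.69 between ingSAT and liver and by 1.52 between ingSAT and pgVAT, and Insig1 by −1.66 between iBAT and pgVAT. With the replicate number as a block both Mlxipl calls were lost. The differences with pgVAT were each called in 17 of 24 refits that left out 1 library.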

How the results depend on the processing

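Of the members at 10 °C, 5 of 64 tests were called; the study's limits gave 9, the edgeR exact test 13, DESeq2 13 and library size scaling 3, and leaving out 1 library gave 3 to 8. At 34 °C the 2 calls became 1 by the study's limits and 0 with library size scaling, with 0 to 3 when 1 library was left out. The lists had 63 calls of 728 at 10 °C (131 by the study's limits, 116 by the exact test, 131 by DESeq2; 46 to 78 without 1 library) and 32 of 327 at 34 °C (21 to 34 without 1 library). The 3 tissue differences at 10 °C ranged from 1 to 10 without 1 library and were 5 without pgVAT 10 °C replicates 1 and 3, an analysis added after the data were seen, and the 0 at 34 °C from 0 to 2. No change called at 10 °C or 34 °C reversed its sign under these settings; uncalled values could, as Mlxipl in pgVAT did without 10 °C replicates 1 and 3 (−0.07 and 0.37), and the 22 °C order of Srebf1 in pgVAT and liver and of Insig1 in the liver and iBAT of the 34 °C experiment reversed with library size scaling. In the 10 tissues of the 10 °C experiment whose columns carry numbers, same-numbered libraries did not deviate together in every pair, so the numbers were not taken as pairs. With the replicate block, 5 member calls and 60 list calls at 10 °C were counted, and 1 tissue difference, Insig1 between iBAT and pgVAT; the block gave bone marrow Insig1 an adjusted p of 0.0666 and iBAT Insig1 0.0351 (edgeR). Low levels of Mlxipl in spleen and bone marrow were not tested at this depth.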
